A study of Mus musculus with 26 samples.

Results

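Described here are 9 transcription factor genes of mouse haematopoietic stem cells (HSCs): Erg, Tcf15, Mycn, Hlf, Mecom, Meis1, Gata2, Prdm16 and Nkx2-3. They were taken by symbol from a table of 23416 genes, and all 9 were found and passed the filter on low values, as did 12116 genes in all. Erg, Tcf15 and Mycn were chosen for their level in Ezh2 loss against control libraries and for how that difference varied with JAK2V617F, and Tcf15 also for a difference between library title styles; those values, double-mutant against JAK2V617F of these 3 genes included, are given as descriptions, with no test. The other 6 are known HSC factors set beside them. The data were 26 Smart-Seq2 RNA libraries of HSCs sorted from bone marrow by flow cytometry: 5 control libraries (labelled CTR, and as wild type), 7 of genotype JAK2V617F, 7 of genotype Ezh2 loss, and 7 carrying both changes, whose genotype label spells the first as JAK2V17F and was read as JAK2V617F (double-mutant). The alleles, the promoter or Cre that acts on them, and the strain, age, sex and number of mice are not stated in the sources used here. The labels do not tie libraries to animals either, and p-values therefore reflect only the spread between these libraries, which may be technical.

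The titles of the libraries come in a pair of styles. In 15 titles a number stands before the group code (number-first), and in 11 it stands after it (number-last). The sources used here do not say what the styles stand for. They are spread unevenly over the genotypes: 4 of 5 control, 2 of 7 JAK2V617F, 2 of 7 Ezh2 loss and 7 of 7 double-mutant libraries are number-first. Only Ezh2 loss against JAK2V617F has the same make-up on both sides. In every other pair genotype and title style are mixed, so each difference is also given with title style as a covariate. The double-mutant group holds no number-last library, and its style-adjusted values rest on the style difference seen in the other 3 groups.

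An HSC keeps its identity through a set of transcription factors that bind many of the same enhancers. Polycomb repressive complex 2, whose methyltransferase is Ezh2, marks histone H3 at lysine 27 over silent, CpG-dense promoters, many of them of developmental transcription factors. JAK2V617F is an activating change in the kinase that signals from the thrombopoietin and erythropoietin receptors, and it drives myeloproliferative neoplasms. Transcripts were read per gene, so a lower level in a bulk library can be fewer cells of a type or less RNA per cell, and these cannot be told apart.

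Each member has its own place in that network. Erg, an ETS factor required to maintain HSCs, lies at chr16:95359169-95586593 on the minus strand (GRCm38, GENCODE M21, like all gene positions here). Tcf15, a basic helix-loop-helix factor found in the most quiescent HSCs, lies at chr2:152143561-152149097 on the plus strand. Mycn, a MYC family factor that drives growth and acts beside Myc in HSCs, lies at chr12:12936093-12941914 on the minus strand. Hlf, a PAR bZIP factor used to mark HSCs, lies at chr11:90336536-90390895. Mecom, the zinc finger gene that encodes Evi1, lies at chr3:29951296-30548008, and Prdm16, its relative with a PR domain, at chr4:154316125-154636873. Meis1, a TALE homeodomain partner of HOX proteins, lies at chr11:18879817-19018985. Gata2, a zinc finger factor of stem and early progenitor cells, lies at chr6:88193891-88207032, and Nkx2-3, an NK family homeobox gene, at chr19:43612325-43615892. Exons of Mecom, Meis1 and Prdm16 overlap antisense transcripts in the annotation, and Smart-Seq2 does not mark strand, so reads of the 2 strands cannot be separated for these 3. Those of Meis1 also overlap an annotated gene on the same strand, Gm37818.

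Promoter sequence in RefSeq (GRCm38.p6) matched 8 of the 9 members. Of these, 3 are shown, cut to bases outside the annotated gene, with each CpG in capitals: Erg, Mycn and Hlf. Erg and Mycn passed in double-mutant against Ezh2 loss, which uses libraries they were chosen on, and neither passed with title style fitted. Hlf passed in no pair. All read 5′ to 3′ on the gene's own strand, and lie at chr16:95586594-95586843, chr12:12941915-12942086 and chr11:90390918-90391167, all on the minus strand.
Erg: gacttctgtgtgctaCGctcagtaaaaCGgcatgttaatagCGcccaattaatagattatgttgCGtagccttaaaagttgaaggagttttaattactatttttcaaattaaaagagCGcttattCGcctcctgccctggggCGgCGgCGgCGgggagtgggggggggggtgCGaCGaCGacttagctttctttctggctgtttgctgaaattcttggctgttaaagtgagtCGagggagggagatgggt
Mycn: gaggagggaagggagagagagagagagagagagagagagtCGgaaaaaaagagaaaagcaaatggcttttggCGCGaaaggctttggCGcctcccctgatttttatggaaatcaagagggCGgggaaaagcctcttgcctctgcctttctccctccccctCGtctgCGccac
Hlf: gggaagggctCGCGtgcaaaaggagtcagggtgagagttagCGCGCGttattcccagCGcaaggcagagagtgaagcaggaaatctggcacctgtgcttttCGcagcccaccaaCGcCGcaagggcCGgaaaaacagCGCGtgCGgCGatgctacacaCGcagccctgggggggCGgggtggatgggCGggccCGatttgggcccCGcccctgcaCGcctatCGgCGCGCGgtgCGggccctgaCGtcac
The Erg stretch holds 14 CpGs in 250 bases, the Mycn stretch 7 in 172 and the Hlf stretch 26 in 250, against a median of 6.0 over all 32851 RefSeq promoter windows of 250 bases. Over the first annotated start of the 8 members, full windows held 11 (Mycn) to 26 (Hlf) CpGs. Letters of 4 binding motifs were searched on both strands; matches of the ETS and STAT letters can share bases. An ETS core, CCGGAAG, occurs in 6.9% of all such windows. The GATA-type core, AGATAA, occurs in 10% of them. The E-box bound by MYC proteins, CACGTG, occurs in 6.0%, and the STAT palindrome, TTCNNNGAA, in 7.0%. None of the 3 stretches shown holds any of the 4. Among the first starts of the 8 members the ETS letters occur in the window of Meis1 only, and a further Erg start inside the gene has the GATA-type letters. Neither Polycomb nor any factor's binding was measured here.

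Depth, estimated from the whole-read steps of the values, ran from 7.8 to 29.2 M reads per library (M, mega), with 9223 to 11007 genes at RPKM of at least 1. Number-first libraries had 14.2 to 29.2 M reads and 9698 to 11007 such genes. Number-last libraries had 7.8 to 18.2 M reads and 9223 to 10065 such genes. Depth is thus mixed with title style, and its part in the differences was not tested. All 12 HSC markers were detected in every genotype group. Their summed level ran from 1165.0 to 2530.0 RPKM in control (median 2003.0) and from 1319.0 to 2268.0 in JAK2V617F (1373.0). It ran from 1328.0 to 2525.0 in Ezh2 loss (1480.0) and from 1960.0 to 2533.0 in the double mutant (2162.0). The medians were thus lower in both single mutants, and the part of this in the results was not tested. The 6 markers of endothelium, where Erg, Mecom and Meis1 are also made, summed to 44.5 to 97.9 RPKM in control, 39.5 to 83.6 in JAK2V617F, 48.6 to 152.5 in Ezh2 loss and 73.7 to 119.8 in the double mutant. Of these the defining Cdh5 was at 0 in 25 and Plvap in 24 of 26 libraries, and Kdr was at 0 in 13, while Pecam1 (4.62 to 30.6), Emcn (18.6 to 124.3) and Tek (0.389 to 38.3), which HSCs also express, were at 0 in none. Among B cell genes Pax5 was at 0 in all 26 libraries, but Cd79b ran from 50.1 to 191.6 and Cd79a reached 50.4. Among T and NK cell genes Cd3e was at 0 in all 26, while Nkg7 reached 618.2 and Cd3g 41.3. The 13 neutrophil and monocyte genes summed to 972.3 to 1619.0 RPKM in control, 1153.0 to 19505.0 in JAK2V617F, 1495.0 to 40394.0 in Ezh2 loss and 1070.0 to 54978.0 in double-mutant libraries. The 10 erythroid genes reached 6204.0 RPKM in Ezh2 loss (median 1176.0) and no more than 49.5 in any library of the other 3 groups. The 5 mast cell and basophil genes reached 120.4 RPKM in Ezh2 loss (median 5.13) and no more than 13.2 in the other 3. The 6 megakaryocyte genes reached 714.9 RPKM in Ezh2 loss (median 226.0) and 363.0 in control (310.9). They reached 387.1 in JAK2V617F (329.2) and 481.8 in the double mutant (295.1). Ezh2 RNA itself had a mean of 23.7 ± 10.4 RPKM (SD, n = 5) in control and 17.6 ± 9.0 (n = 7) in Ezh2 loss, a log2 fold change of -0.43 (SE 0.41, limma adjusted p = 0.792), with ranges of 8.11 to 33.2 and 5.15 to 31.4 that overlap. It was at 17.4 ± 9.07 (n = 7) in the double mutant. These values were read per gene, not per exon, and do not by themselves show the loss. The reason was not tested. Jak2 RNA ran from 0.996 to 30.3 RPKM over all libraries, which says nothing of the V617F base change.

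In control HSCs the members covered a wide span of levels. Per kilobase of gene, Meis1 (152.9 ± 27.6 RPKM, SD, n = 5), Mycn (124.0 ± 47.5) and Gata2 (109.3 ± 49.4) were the most abundant. Tcf15 (67.2 ± 28.2), Nkx2-3 (46.6 ± 4.14), Hlf (43.8 ± 9.5) and Mecom (29.1 ± 9.27) followed, and Erg (16.7 ± 9.12) and Prdm16 (3.13 ± 1.25) were lowest. Every step between neighbours in this order was smaller than the larger of the 2 SDs, except those from Hlf to Mecom, from Mecom to Erg and from Erg to Prdm16. Over all 26 libraries Meis1 stood above 92.5% of tested genes and Prdm16 above 28.1%. The members also differed in how evenly the libraries carried them: within control the SD was 8.9% of the mean for Nkx2-3 and 54.8% for Erg, and within Ezh2 loss it was 18.8% for Meis1 and 110.5% for Tcf15.

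**Figure D1:**
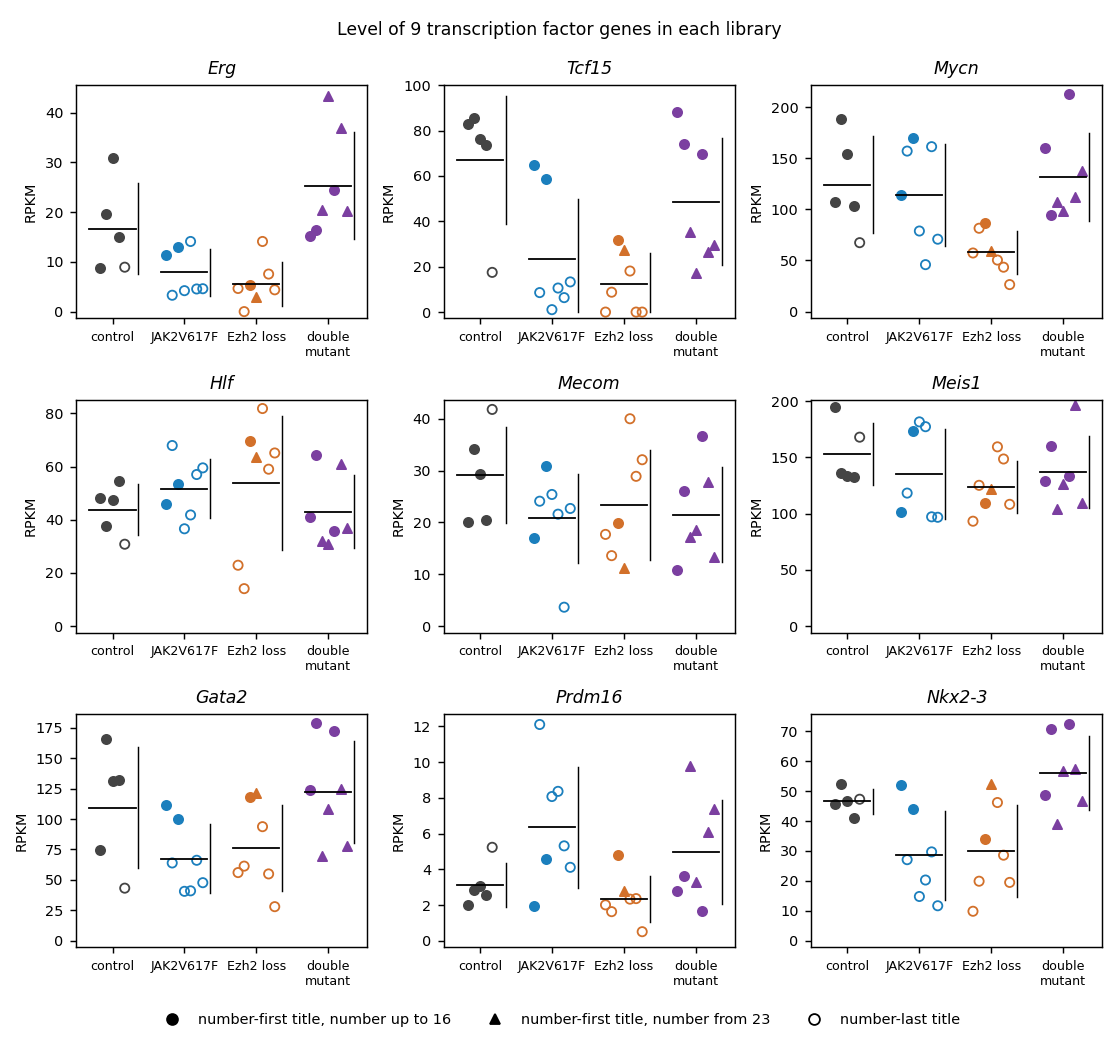
RPKM of each of the 9 genes (vertical axes, linear) in every library, by genotype group, with filled circles for number-first titles numbered up to 16, triangles for number-first titles numbered from 23, and open circles for number-last titles; horizontal bars are group means and vertical bars 1 SD, cut at 0. Double-mutant Erg lies at 15.2 RPKM or above and every JAK2V617F and Ezh2 loss library at 14.1 or below, while Tcf15 is at 18.1 or below in all number-last libraries.

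By group mean Erg was highest in the double mutant (25.3 RPKM) and lowest in Ezh2 loss (5.58). The medians of both single mutants were close, and their number-last libraries had the same mean, 6.15 RPKM. Among number-first titles numbered up to 16, the means were 18.7 RPKM in the double mutant and 18.6 in control. In control libraries Erg was at 8.85, 19.7, 30.8, 15.0 and 8.93 RPKM in replicate order. JAK2V617F libraries ran from 3.29 through a median of 4.6 to 14.1, and Ezh2 loss libraries from 0.0 through 4.65 to 14.1. Double-mutant libraries ran from 15.2 through 20.4 to 43.4, so all 7 lay above every library of both single mutants, while 5 of the 7 lay within the control range. The single 0 was Ezh2 loss replicate 2, where no read was counted and 3 reads would have given 0.12 RPKM; reads behind Erg ran up to 2389 in the other libraries (median 386 over all 26).

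Against Ezh2 loss, double-mutant Erg was higher by 2.25 on the log2 scale of RPKM + 1 (SE 0.47, limma adjusted p = 0.0355; means 25.3 ± 10.8 and 5.58 ± 4.43, SD, n = 7 each). Erg was chosen for its low level in these Ezh2 loss libraries, so this p is not independent evidence. With title style as a covariate the difference was 1.85 (SE 0.56, limma adjusted p = 0.381). In number-first libraries alone, 7 against 2, it was 2.3 (SE 0.49, limma adjusted p = 0.0958), and the 2 Ezh2 loss libraries of that style had 5.36 and 2.95 RPKM. The size was thus similar within 1 title style, and the call was lost there. It was also lost without any one of Ezh2 loss replicates 1, 2, 6 and 7 or double-mutant replicates 2, 4, 5, 6 and 7, with values of 1.86 to 2.51 and limma adjusted p of 0.0194 to 0.0786 over all 26 libraries left out in turn. A pseudocount of 0.1 or no filter on low values ended it too.

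Against JAK2V617F, double-mutant Erg was at 1.65 (SE 0.47), and at 1.25 (SE 0.56) with the style covariate, a value that is part of what Erg was chosen for and is not tested. In number-first libraries the difference was 0.91 (SE 0.49), with 11.4 and 12.9 RPKM in the 2 JAK2V617F libraries. Against control the double mutant differed by 0.63 (SE 0.51, limma adjusted p = 0.984) and JAK2V617F by -1.03 (SE 0.51, limma adjusted p = 0.615). The value for Ezh2 loss against control, on which Erg was chosen, was -1.62 (SE 0.51), -1.33 with title style fitted and -1.84 in number-first libraries. Set side by side, Ezh2 loss went with lower Erg on the control background (-1.62) and with higher Erg on the JAK2V617F background (1.65), and the difference of the 2 was 3.28 (SE 0.70), or 2.58 (SE 0.87) with title style fitted. No neighbours in the order of means, double-mutant, control, JAK2V617F, Ezh2 loss, passed a test against each other. Of these, Ezh2 loss against JAK2V617F was at -0.60 (SE 0.47, limma adjusted p = 0.857), -1.39 among number-first and -0.28 among number-last libraries.

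Mycn had its lowest group mean in Ezh2 loss. Control libraries had 106.9, 188.8, 154.1, 103.0 and 67.4 RPKM, and JAK2V617F libraries ran from 45.9 through 114.2 to 169.9. Ezh2 loss libraries ran from 26.4 through 57.3 to 86.9, and double-mutant libraries from 94.2 through 111.7 to 212.4. No Ezh2 loss library reached the lowest double-mutant library, and 5 of 7 lay below the lowest control, which was the 1 number-last control. Only 2 of 7 lay below the lowest JAK2V617F library. The double mutant has no number-last library. Number-first libraries were higher in Mycn by 0.66 in log2 at equal genotype (SE 0.26, limma adjusted p = 0.105). With 890 to 12696 reads behind it in every library, Mycn was read far more deeply than Erg.

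Double-mutant Mycn was higher than in Ezh2 loss by 1.2 (SE 0.29, limma adjusted p = 0.0478; means 131.7 ± 42.6 and 57.9 ± 21.0, SD, n = 7 each). As with Erg, the p is not independent of the choice of gene. The difference was 0.73 (SE 0.32, limma adjusted p = 0.605) with title style fitted and 0.81 (SE 0.31, limma adjusted p = 0.425) in number-first libraries. Leaving out any one of 16 libraries ended this call: control 1, 3 and 4, JAK2V617F 4, Ezh2 loss 1, 2, 5, 6 and 7, and each double-mutant library, with values of 1.04 to 1.32 and limma adjusted p of 0.0312 to 0.132 over all 26. So did a pseudocount of 0.1, no filter and both other scalings. Against JAK2V617F, where the title styles are even, Ezh2 loss was at -0.92 (SE 0.29, limma adjusted p = 0.40), -0.95 among number-first and -0.90 among number-last libraries. That difference therefore had nearly the same size in both styles but did not pass. Against control, where Mycn was chosen, Ezh2 loss was at -1.09 (SE 0.32), -0.75 with title style fitted and -0.89 in number-first libraries. JAK2V617F (-0.17) and the double mutant (0.12) were close to control, with limma adjusted p of 0.906 and 0.99, and both values changed sign when title style was fitted (0.17 and -0.02).

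In double-mutant against Ezh2 loss 2 of the 9 members passed, Erg and Mycn, both chosen in part on these Ezh2 loss libraries, so nothing is read from the count beside the 0.702% of all tested genes that passed. With the style covariate none passed, and 0.0% of tested genes did, and 2 of the 9 had an unadjusted limma p under 0.05. Erg and Mycn were also the 2 members that were higher with no overlap between the groups, as were 0.413% of tested genes; that count too follows in part from the choice. In double-mutant against JAK2V617F none of the 9 passed in limma, 4 had an unadjusted p under 0.05, and 2.26% of tested genes passed, falling to 0.033% with the style covariate, where no member passed and 1 had an unadjusted p under 0.05. Erg was the 1 member higher with no overlap there, against 0.52% of tested genes. By genotype alone 7 of the 9 members were higher in the double mutant in both comparisons. Their median log2 differences were 0.78 against Ezh2 loss and 0.29 against JAK2V617F, where the medians over all tested genes were 0.141 and 0.142. With title style fitted 7 were higher against Ezh2 loss (median 0.42, all tested genes 0.003). Against JAK2V617F 5 were then higher and 4 lower (median 0.05, all tested genes 0.011). The 2 comparisons share their double-mutant libraries. Erg, Tcf15 and Mycn were chosen on values that use the libraries of all 4 groups, so for these 3 genes no p or count in any pair is independent of that choice.

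The other pairs held no passing member in limma. JAK2V617F against control had 2 members with an unadjusted p under 0.05 and 0.00825% of tested genes passing, or 0.0% with title style fitted. Double-mutant against control had no member with an unadjusted p under 0.05 and 0.0% passing, or 0.00825% with title style fitted. Ezh2 loss against JAK2V617F had 2 members with an unadjusted p under 0.05 and 0.0743% passing, or 0.099% with title style fitted. For Ezh2 loss against control 0.0% of tested genes passed, with or without title style, and 1008 and 736 genes had an unadjusted p under 0.05; 8 of the 9 members were lower, a count that rests in part on how they were chosen.

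**Figure D2:**
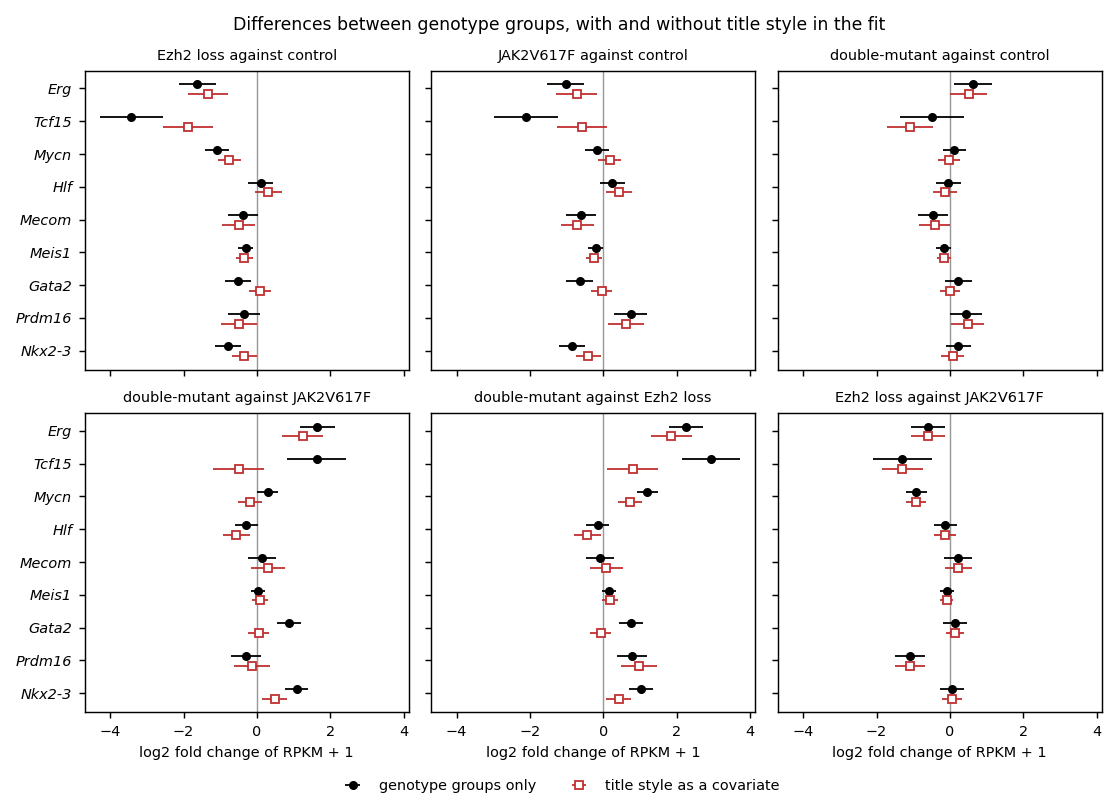
Log2 fold change of RPKM + 1 (horizontal axes) with its standard error for the 9 genes in each of the 6 pairs of genotype groups, from the fit with genotype groups only (black circles) and with title style as a covariate (red squares). Tcf15 moves most between the fits, from 2.93 to 0.80 in double-mutant against Ezh2 loss, and the 2 fits give the same values in Ezh2 loss against JAK2V617F, where the styles are even.

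Tcf15 followed the title style of the libraries. The 15 number-first libraries ran from 17.4 through a median of 64.9 to 88.2 RPKM, and the 11 number-last libraries from 0.0 through 8.59 to 18.1. At equal genotype the difference was 2.99 on the log2 scale (SE 0.55), a value for which it was chosen. In number-first libraries Tcf15 was at 79.6 ± 5.66 RPKM in control (SD, n = 4), 61.7 ± 4.46 in JAK2V617F (n = 2), 29.5 ± 3.2 in Ezh2 loss (n = 2) and 48.7 ± 27.9 in the double mutant (n = 7). In number-last libraries it was at 17.5 in the 1 control, at 7.99 ± 4.64 in JAK2V617F (n = 5) and at 5.38 ± 8.07 in Ezh2 loss (n = 5). Ezh2 loss replicates 1, 6 and 7, all number-last, had no Tcf15 read, where 3 reads would have given 0.369, 0.177 and 0.248 RPKM.

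The genotype differences of Tcf15 shrank or turned when title style entered. Ezh2 loss against control was -3.42 (SE 0.87) by genotype alone, -1.88 (SE 0.68) with title style fitted and -1.40 (SE 0.50) in number-first libraries. Double-mutant against Ezh2 loss fell from 2.93 (SE 0.80, limma adjusted p = 0.0742) to 0.80 (SE 0.69). By genotype alone it passed without Ezh2 loss replicate 3 or 4 (lowest limma adjusted p = 0.0265). Those are the only number-first Ezh2 loss libraries, so leaving out either one mixes genotype and title style further. Tcf15 was chosen in part on these libraries, so neither p is independent evidence. Double-mutant against JAK2V617F turned from 1.63 (SE 0.80) to -0.50 (SE 0.69). JAK2V617F against control went from -2.12 (SE 0.87, limma adjusted p = 0.615) to -0.58 (SE 0.68). In the style-even pair, Ezh2 loss was below JAK2V617F by 1.30 in log2 (a difference of -1.30, SE 0.80, limma adjusted p = 0.784), with -1.04 among number-first and -1.40 among number-last libraries. The difference between the Ezh2 effects on the 2 backgrounds was 5.05 (SE 1.18) by genotype alone and 1.37 (SE 1.08) with title style fitted.

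Within number-first titles the double-mutant values of Tcf15 also split by the number itself, a pattern noticed after the values were seen. Double-mutant libraries numbered 2, 11 and 13 had 88.2, 69.6 and 74.2 RPKM, and those numbered 24 to 27 had 17.4 to 35.4. Tcf15 was the 1 member of 9 whose 2 sets of double-mutant libraries did not overlap. The share over all tested genes was about the same, 12.1%, so nothing is read from the count. All number-first control and JAK2V617F libraries are numbered 16 or lower and had 58.6 to 85.7 RPKM. The 2 number-first Ezh2 loss libraries, numbered 10 and 23, had 31.8 and 27.3, without such a gap. The sources used here do not say what the numbers stand for. Among libraries numbered up to 16, an alternative added after seeing the data, double-mutant Tcf15 differed from control by -0.05 (SE 0.22) and from JAK2V617F by 0.31 (SE 0.26), and Erg by 0.11 (SE 0.44) and 0.56 (SE 0.52).

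Gata2 and Nkx2-3 followed title style as well. Gata2 was at 120.6 ± 33.3 RPKM in number-first libraries (SD, n = 15, range 69.6 to 178.6) and at 54.2 ± 17.5 in number-last ones (n = 11, range 28.0 to 93.7), a difference at equal genotype of 1.16 (SE 0.23, limma adjusted p = 0.000898). Within genotype the split was complete for JAK2V617F, where the 2 number-first libraries had 111.2 and 100.1 and the 5 others 40.6 to 66.1, and for Ezh2 loss, with 118.1 and 121.1 against 28.0 to 93.7. Nkx2-3 was at 50.7 ± 10.7 in number-first (n = 15) and 25.0 ± 12.6 in number-last libraries (n = 11), a difference of 0.83 (SE 0.27, limma adjusted p = 0.0469). The Nkx2-3 call remained only when the library left out was control replicate 1, 4 or 5, JAK2V617F 2 or 6, Ezh2 loss 5 or 6 or double-mutant 3 (limma adjusted p 0.017 to 0.152 over all 26), and it ended with no filter and under both other scalings. The number-last control library went against it, with 47.3 RPKM among number-first controls at 41.0 to 52.5. In all, 11% of tested genes passed for title style, as did 2 of the 8 members other than Tcf15.

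**Figure D3:**
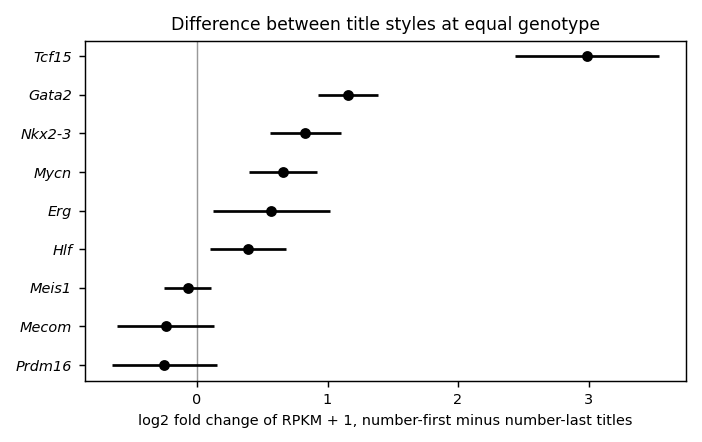
Log2 difference of RPKM + 1 between number-first and number-last libraries at equal genotype (horizontal axis) with its standard error, for the 9 genes in order of size. Tcf15 (2.99), Gata2 (1.16) and Nkx2-3 (0.83) lie farthest to the right, and Meis1, Mecom and Prdm16 lie within 1 SE of 0.

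The genotype differences of Gata2 and Nkx2-3 were close to 0 once style was fitted or grew smaller. Gata2 was higher in the double mutant than in JAK2V617F by 0.88 (SE 0.33, limma adjusted p = 0.141) and 0.05 (SE 0.29) with the style covariate. Against Ezh2 loss it went from 0.75 (SE 0.33, limma adjusted p = 0.266) to -0.08 (SE 0.29). Nkx2-3 was higher in the double mutant than in JAK2V617F by 1.08 (SE 0.32, limma adjusted p = 0.0635), 0.49 (SE 0.34) with title style fitted and 0.19 (SE 0.29) in number-first libraries. By genotype alone it passed without JAK2V617F replicate 1 or 3 or Ezh2 loss replicate 1 (lowest limma adjusted p = 0.0237). JAK2V617F replicates 1 and 3 are the only number-first libraries of that group, so leaving out either one mixes genotype and title style further. Against Ezh2 loss the 3 values were 1.02 (SE 0.32, limma adjusted p = 0.132), 0.42 and 0.37.

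Prdm16, the least abundant member, was at 1.98, 2.82, 3.07, 2.54 and 5.23 RPKM in control, the highest being the number-last library. JAK2V617F ran from 1.94 through 5.31 to 12.1, Ezh2 loss from 0.509 through 2.33 to 4.78 and the double mutant from 1.67 through 3.64 to 9.79, with 57 to 1736 reads per library. Ezh2 loss against JAK2V617F was -1.09 (SE 0.41, limma adjusted p = 0.547). In number-last libraries the difference was -1.61 (SE 0.56, limma adjusted p = 0.583), and all 5 Ezh2 loss libraries (0.509 to 2.36) lay below all 5 JAK2V617F libraries (4.11 to 12.1), as was so for 0.636% of tested genes. The 2 libraries per group with number-first titles did not follow, with 4.78 and 2.77 RPKM in Ezh2 loss and 1.94 and 4.56 in JAK2V617F (0.21, SE 0.75).

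Hlf, Mecom and Meis1 passed in no pair and not for title style. Meis1 varied least, with group means from 123.6 ± 23.3 (Ezh2 loss) to 152.9 ± 27.6 RPKM (control), and differences from -0.31 to 0.14 with SEs of 0.19 to 0.20 over the 6 pairs. Hlf had group means from 43.1 ± 13.8 (double-mutant) to 53.7 ± 25.2 (Ezh2 loss), the latter spread from 14.1 to 81.8. Ezh2 loss replicates 1 and 2, with 22.9 and 14.1 RPKM of Hlf, lay below every other library, and had 1176 and 3483 RPKM of erythroid genes; replicates 5 and 6, with 1701 and 6204, had Hlf at 81.8 and 59.0. Mecom had group means from 20.8 ± 8.63 (JAK2V617F) to 29.1 ± 9.27 (control), with 1 JAK2V617F library, replicate 6, at 3.66. Over the 6 pairs the differences ran from -0.29 to 0.24 for Hlf and from -0.60 to 0.23 for Mecom, with SEs of 0.31 to 0.41, which does not show equal levels.

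Neutrophil and monocyte transcripts moved with the Ezh2 loss group, and their part in the results was not tested. Their sum was 5784 RPKM or more in 6 of 7 Ezh2 loss libraries, 5641 or more in 3 of 7 double-mutant libraries and 19505 in 1 JAK2V617F library, against 1900 or less in all others. The Ezh2 loss library with the lowest sum, replicate 5 at 1495, had the highest Erg of its group (14.1 RPKM), Tcf15 at 18.1 and Mycn at 50.4. It also had 1701 RPKM of erythroid genes and the lowest depth of all libraries, 7.8 M reads. In the double mutant the 3 libraries with high sums had Tcf15 at 35.4, 17.4 and 29.6 RPKM, against 88.2, 74.2, 69.6 and 26.3 in the others; these 3 are also among the 4 libraries numbered from 24. The same 3 had Erg at 20.4, 43.4 and 20.2 and Mycn at 106.9, 98.6 and 137.6, beside 15.2, 16.4, 24.4 and 36.9 for Erg and 160.3, 94.2, 212.4 and 111.7 for Mycn in the others. The double-mutant library richest in neutrophil transcripts (54978) was thus the one highest in Erg. In JAK2V617F the 6 libraries with sums of 1900 or less had Erg at 3.29 to 14.1.

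**Figure D4:**
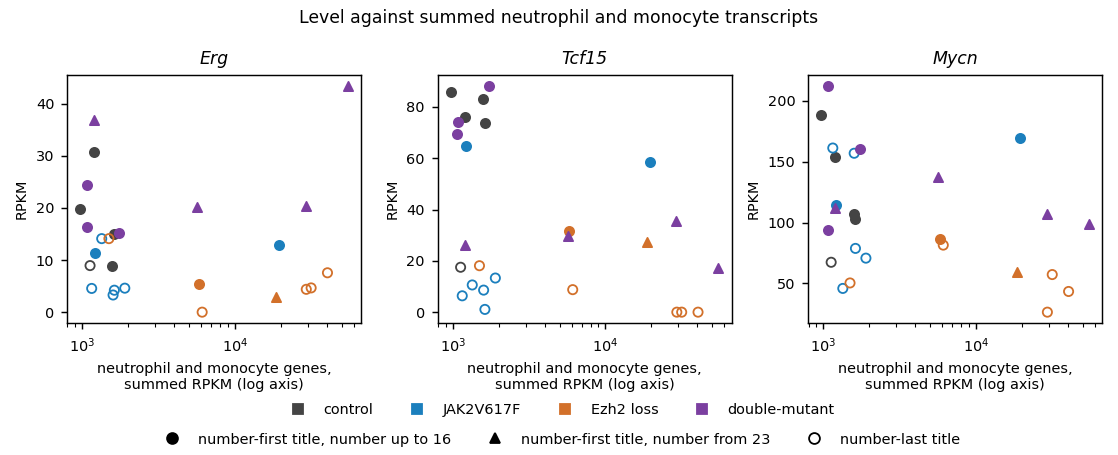
RPKM of Erg, Tcf15 and Mycn (vertical axes) against the summed RPKM of 13 neutrophil and monocyte genes (horizontal axes, log scale), with 1 symbol per library, colour for genotype and symbol for title style as named in the key. Ezh2 loss libraries reach at most 14.1, 31.8 and 86.9 RPKM at sums from 1495 to 40394, and the double-mutant library with the highest sum, 54978, has the highest Erg, 43.4 RPKM.

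The wider network was read from 72 partners and relatives of the members, 68 of them tested. In double-mutant against JAK2V617F, 2 were higher and 1 lower, where 2.26% of all tested genes passed. Lyl1, which sits with Tal1, Lmo2 and Erg on stem cell enhancers, was higher by 1.24 (SE 0.27, limma adjusted p = 0.0187; 209.4 ± 91.0 and 86.5 ± 30.8 RPKM, SD, n = 7 each). Gfi1b, a transcriptional repressor active in HSCs and in the megakaryocyte and erythroid lineages, was higher by 0.80 (SE 0.19, limma adjusted p = 0.0241; 186.3 ± 29.6 and 109.2 ± 30.7). In double-mutant against Ezh2 loss 1 of the 68 passed, and was lower, where 0.702% of all tested genes passed. The Lyl1 call remained whichever library was left out. Gfi1b did not pass without JAK2V617F replicate 4, 5, 6 or 7 or double-mutant replicate 6 (highest limma adjusted p = 0.0597). None of these 4 calls was left with title style fitted, where Lyl1 was at 1.31 (limma adjusted p = 0.17) and Gfi1b at 0.62 (limma adjusted p = 0.40). In number-first libraries Lyl1 was at 0.74 (SE 0.36) and Gfi1b at 0.29 (SE 0.20), and in those numbered up to 16 at 0.05 (SE 0.24) and 0.36 (SE 0.22). None of the 68 passed in the other 4 pairs.

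By title style 6 of the 68 were higher and 3 lower in number-first libraries, against 931 higher and 400 lower of 12116 tested genes. Lmo2, the bridging protein of the Tal1 complex, was at 917.6 against 463.4 RPKM (1.22, SE 0.20, limma adjusted p = 4.71e-05), and its partner Ldb1 at 46.8 against 13.4 (2.25, SE 0.45). Tcf3, the E protein that pairs with factors such as Tcf15, was at 18.6 against 7.68 (1.26, SE 0.37, limma adjusted p = 0.0245). Mxd4, a MAX partner that opposes MYC proteins, was at 21.5 against 1.95 (4.08, SE 0.51, limma adjusted p = 9.68e-07). Zfpm1, the cofactor of GATA proteins, and Nfe2 were higher too, by 1.74 (SE 0.55) and 0.59 (SE 0.14). Fli1, the closest relative of Erg, was lower, at 81.0 against 141.5 (-0.80, SE 0.22, limma adjusted p = 0.014), as was Nfia (-2.14, SE 0.39). Erg itself was at 0.57 (SE 0.45, limma adjusted p = 0.488). Of the calls named here, Fli1 was lost without JAK2V617F replicate 1, Tcf3 without JAK2V617F 1 or 3 or Ezh2 loss 3, and Zfpm1 without control 5, JAK2V617F 1, 3 or 7 or Ezh2 loss 3 or 4; Nfe2 was lost with quantile scaling, and Zfpm1 with quantile scaling, at a pseudocount of 0.1 and with no filter.

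The 3 tested genes whose levels ran most like each leading member over the 26 libraries were picked by the Pearson correlation of log2(RPKM + 1), which these genotype and style differences share. For Erg they were Wars (0.79), Rasal3 (0.76) and Psmd3 (0.74), and 0.56, 0.54 and 0.53 once group and style means were removed. For Tcf15 they were Tysnd1 (0.86), Macrod1 (0.86) and Sf3a2 (0.84), with 0.68, 0.66 and 0.48 left within group and style. For Mycn they were Asna1 (0.79), Macrod1 (0.77) and Thap4 (0.76), with 0.74, 0.62 and 0.54 left. The 5 different genes named for Tcf15 and Mycn were themselves higher in number-first libraries, by 1.88 (Thap4) to 4.37 (Sf3a2) in log2, and those named for Erg by 0.37 to 0.74.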

How the data were processed

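The authors deposited 1 table of RPKM (reads per kilobase of each gene, scaled to library depth), with 1 column per library and no counts. The submitters' processing notes name the build mm10 (GRCm38), the aligner STAR (2.4.2a), Subread (1.5.0) and SAMtools (0.1.19); settings and annotation are not stated in the sources used here. Values of a gene lie on whole-read steps (5066 genes, tolerance 0.01; 315 of 325 library pairs gave a coherent depth ratio), from which depth and reads per gene were estimated; intervals from them cover counting error only.

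A gene was tested if 5 or more libraries had it at RPKM 1 or above. limma 3.58.1 (R 4.3.3) was fitted to log2(RPKM + 1) over all 26 libraries, with 1 mean per genotype group and eBayes moderation (trend and robust set; prior degrees of freedom 7.3 in the median). Tests were two-sided, adjusted by Benjamini-Hochberg over all 12116 tested genes, with the threshold at 0.05. An added 1 understates changes of low genes. Title style was tested in a fit of group and style together. The script was tested on simulated data.

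Members and gene lists were chosen with earlier results of these data known. The 9 members are always named, list genes where they passed (at most 3 per list and comparison by smallest adjusted p), and the 3 genes most like Erg, Tcf15 and Mycn among those with a mean RPKM of at least 5, leaving out predicted genes and pseudogenes; not every gene that meets this rule is reported here. Groups follow the genotype label; replicates are numbered in order of deposition. Alternatives were pseudocounts of 0.1 and 5, no filter, 2 other scalings (median-ratio and quantile), title style as a covariate, each title style alone, only the groups compared, number-first titles numbered up to 16 (added after seeing the data), and leaving out each library.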

Additional observations from a re-analysis of the deposited data

Results flagged for a closer look

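Tcf15 in control replicate 5, the number-last control, was at 17.5 RPKM with its nearest control at 73.6, a gap of 0.82 of the group's range (critical value 0.71 for 5 libraries). Tcf15 was chosen in part for its difference between title styles, so this flag is not independent of that choice. It was the 1 such library in 36 groups of values looked at, where chance flags about 1 group in 20, so nothing is read from the count.

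The effect of Ezh2 loss differed between the backgrounds without and with JAK2V617F by 3.28 in log2 for Erg (-1.62 and 1.65) and by 5.05 for Tcf15 (-3.42 and 1.63). The genes were chosen on these values, so the differences were not tested. With title style fitted they were 2.58 and 1.37.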

How the results depend on the processing

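No paired analysis was possible because replicates are numbered only in order of deposition. With 2 of 9 members passing in double-mutant against Ezh2 loss, 0 passed at a pseudocount of 0.1, with no filter on low values, in number-first libraries and with the style covariate, and 1 (Erg) with median-ratio or quantile scaling; leaving out 1 library gave 0 to 3. Against JAK2V617F the count of 0 became 1 at a pseudocount of 5 and with only the groups compared, and leaving out 1 library gave 0 to 2. Those counts take in Erg, Tcf15 and Mycn, which were chosen in part on this pair, so nothing is read from them. Of the 68 partner genes, the 3 that passed in double-mutant against JAK2V617F became 0 in number-first libraries, in those numbered up to 16 and with the style covariate (1 to 8 on leaving out 1 library). The 1 against Ezh2 loss became 0 at a pseudocount of 0.1, with no filter, in number-first libraries, with the style covariate and with only the groups compared (0 to 1 on leaving out 1 library). The cause of these changes was not tested.

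Several differences that had not passed changed sign, the larger being Tcf15 in double-mutant against JAK2V617F (1.63), Prdm16 in Ezh2 loss against JAK2V617F (-1.09) and Nkx2-3 in JAK2V617F against control (-0.85). With the style covariate, JAK2V617F against control was 0.17 for Mycn; double-mutant against control was -0.02 for Mycn and -0.0003 for Gata2; double-mutant against JAK2V617F was -0.50 for Tcf15 and -0.19 for Mycn; and double-mutant against Ezh2 loss was 0.08 for Mecom and -0.08 for Gata2. In number-first libraries JAK2V617F against control was 0.06 for Mycn and 0.05 for Nkx2-3 (0.06 and 0.05 when numbered up to 16). Double-mutant against control was -0.08 for Mycn and -0.06 for Gata2. Double-mutant against JAK2V617F was -0.55 for Tcf15, -0.14 for Mycn, -0.19 for Mecom (-0.06 when numbered up to 16) and 0.41 for Prdm16. Double-mutant against Ezh2 loss was 0.39 for Mecom and -0.04 for Gata2. Ezh2 loss against JAK2V617F was 0.42 for Hlf, -0.58 for Mecom, 0.21 for Prdm16 and -0.18 for Nkx2-3. In double-mutant against JAK2V617F, Meis1 was -0.02 with median-ratio scaling and Mecom -0.06 with quantile scaling.

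Leaving out 1 library turned the sign of values near 0. For Ezh2 loss against JAK2V617F the ranges were -0.0046 to 0.34 (Gata2), -0.26 to 0.15 (Hlf), -0.11 to 0.37 (Mecom) and -0.11 to 0.29 (Nkx2-3). For double-mutant against control they were -0.06 to 0.42 (Gata2), -0.17 to 0.03 (Hlf) and -0.08 to 0.29 (Mycn), and for JAK2V617F against control -0.37 to 0.02 (Mycn). For double-mutant against JAK2V617F they were -0.21 to 0.27 (Mecom) and -0.05 to 0.12 (Meis1), against Ezh2 loss -0.24 to 0.05 (Mecom), and for title style -0.19 to 0.02 (Meis1) and -0.54 to 0.02 (Prdm16). The lowest values were those of Tcf15 and Erg in Ezh2 loss, and whether depth limits them was not tested. Tcf15 had no read in replicates 1, 6 and 7 of that group. Of these, replicate 1 was among the least deep of the group and replicate 6 was the deepest number-last library. Replicate 5, the library of lowest depth, had 132 Tcf15 reads. Erg had no read in replicate 2, where 3 reads would have given 0.12 RPKM. Number-last libraries were on the whole less deep than number-first ones, and what this does to the differences was not tested. Number-first comparisons rest on 2 JAK2V617F and 2 Ezh2 loss libraries.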
